A study of Mus musculus with 8 samples.

Results

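Elastic fibre and lysyl oxidase genes were examined in lung endothelial cells (ECs) of newborn mice. The group holds 10 genes chosen by name, out of 54532 genes in the deposited count table: elastin (Eln), the fibrillins Fbn1 and Fbn2, fibulin-5 (Fbln5), Emilin1, and the 5 lysyl oxidases Lox, Loxl1, Loxl2, Loxl3 and Loxl4. Wild-type C57BL/6J pups were kept in room air (normoxia, 21% O2) or in 80% O2 (hyperoxia) from postnatal day 0 to day 14, and lung ECs were profiled on day 14 by bulk RNA-seq. Each group had 4 libraries, and no group carried a transgene or a deletion. Per the study's methods, ECs were the lung cells left after CD45 depletion that bound CD31 beads, so RNA of other cells carried through the beads is counted with them. The labels do not say that each library came from a separate pup, so the p-values measure the spread between these libraries only.

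Elastic fibres give the lung its recoil and are laid down while the alveolar septa grow. A fibre has a core of elastin on a scaffold of fibrillin microfibrils, with adaptor proteins such as fibulin-5 and EMILIN1 between them. Lysyl oxidases are secreted copper enzymes that oxidise lysines, after which elastin and collagen chains cross-link. Smooth muscle cells, fibroblasts and myofibroblasts are well known sources of these proteins, and ECs also make several of them.

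The deposited libraries held 16098086 to 18300730 counts. Mitochondrial genes took 0.864 to 1.05% of the counts in normoxia and 1.21 to 1.43% in hyperoxia. Levels in CPM, here and below, are counts scaled to the library size after its adjustment by TMM, the scaling between libraries used in the fit. The EC label was checked on 12 pan-endothelial markers. Their summed level was 17990 to 19000 CPM in normoxia and 18178 to 19145 CPM in hyperoxia. By the test used for all genes, 5 of these markers were higher and 3 were lower, beside 18.5% higher and 17.1% lower of all genes tested. The near equal sums thus held single markers that moved both ways. Their log2 fold changes (hyperoxia relative to normoxia) ran from -0.79 to 0.43. Their most abundant members, Cldn5 (a tight junction claudin) and Cdh5 (VE-cadherin), averaged 1569 and 964 FPKM, that is, fragments scaled to gene length and library total.

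Of the 10 genes, 7 were higher in hyperoxia at an adjusted p under 0.05 and none was lower, against 35.6% of the 15564 genes tested, 18.5% higher and 17.1% lower. The 7 were Fbn1, Fbn2, Fbln5, Emilin1, Loxl1, Loxl3 and Loxl4. By role, this was 0 of 1 for the elastin core, 2 of 2 fibrillins, 2 of 2 adaptors and 3 of 5 lysyl oxidases. Loxl1, Loxl3 and Loxl4 also reached a log2 fold change of 1, which 6.98% of all genes tested did in either direction, 5.62% upward and 1.36% downward. In 6 genes, every hyperoxia library lay above every normoxia library, as in 17.8% of all genes tested, with 17.6% the other way and 35.4% in either. The median log2 fold change (hyperoxia relative to normoxia) was 0.53 over the 10 genes and -0.00400 over all genes tested. The genes, and the lists below, were chosen with earlier results of these data known. These shares and medians are therefore a description and do not test the genes as a group. The adjusted p-values here and below are from the quasi-likelihood test of edgeR over all genes tested, with the Benjamini-Hochberg adjustment, and all 10 genes passed its filter on low counts. In bulk samples such as these, more or fewer cells of a type cannot be told apart from more or less RNA per cell.

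**Figure D1:**
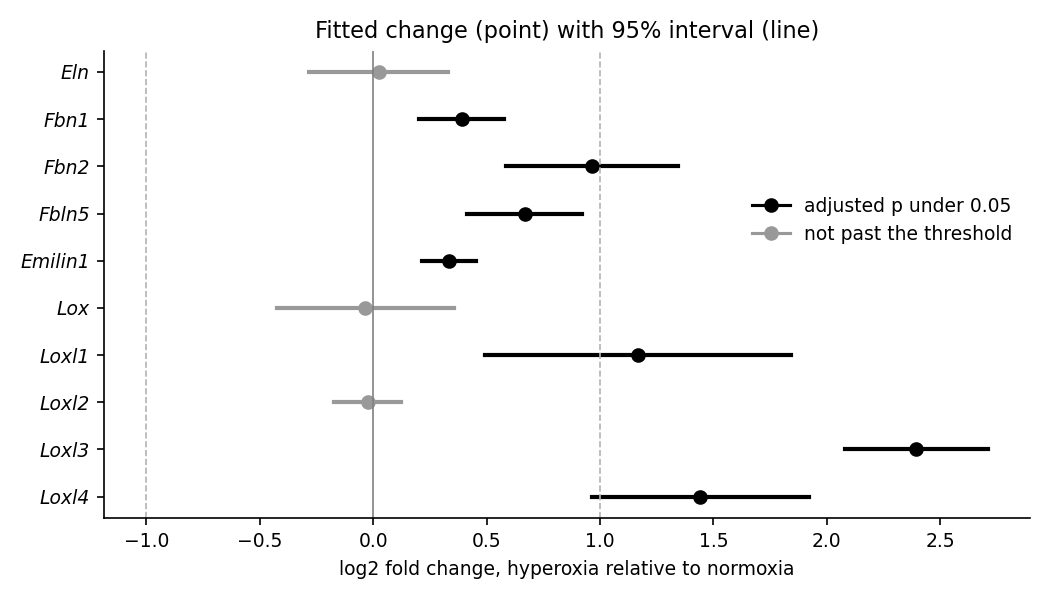
Fitted log2 fold change (hyperoxia relative to normoxia, 4 libraries each) of the 10 genes with its 95% interval, with dashed lines at -1 and 1. Points in black passed an adjusted p of 0.05, from Emilin1 at 0.33 to Loxl3 at 2.39, and the 3 points in grey (Eln, Lox and Loxl2) lie next to 0.

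Eln, which encodes the soluble precursor of the fibre core (chr5:134702593-134747323, minus strand, build mm10), was by far the most abundant of the genes. It was the gene ranked 24 by FPKM among 13277 protein-coding genes tested and took 0.490 ± 0.0977% of all counts in normoxia and 0.489 ± 0.0794% in hyperoxia (mean ± SD, n = 4). The 4 normoxia libraries held 724, 542, 647 and 467 FPKM of Eln, and the 4 hyperoxia libraries 518, 639, 542 and 728 FPKM. The 2 groups covered nearly the same range. The fold of hyperoxia over normoxia was 1.02 with a 95% interval of 0.822 to 1.26 (log2 fold change 0.02, SE 0.139, adjusted p = 0.910). Any fold of Eln within that interval is compatible with these libraries. An antisense transcript, Gm30003, overlaps 3.30% of the Eln exon bases and held 0.335 CPM in normoxia and 0.339 CPM in hyperoxia.

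**Figure D2:**
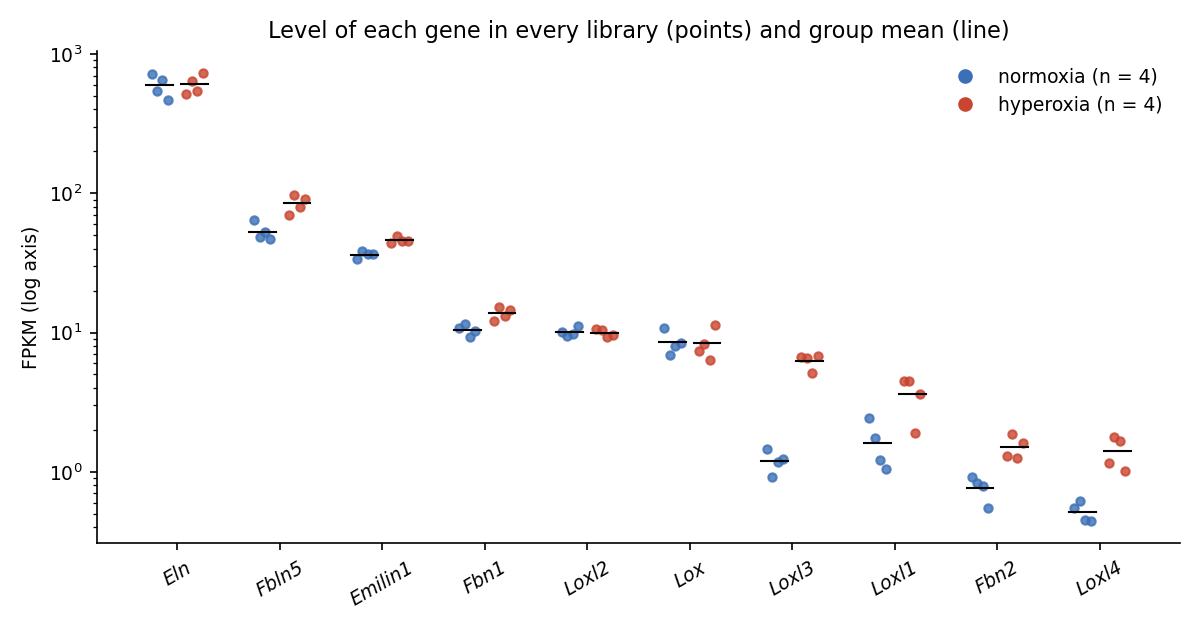
FPKM (log axis) of each of the 10 genes in every library, with a line at the mean of the 4 normoxia and the 4 hyperoxia libraries. Eln lies at 467 to 728 FPKM in all 8 libraries, above every other gene, and the Loxl3 points of the groups are farthest apart, at 0.914 to 1.47 FPKM against 5.11 to 6.83 FPKM.

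The levels per gene length fell into steps that are seen in the plot of FPKM by library. In normoxia, Eln was followed by Fbln5 (46.8 to 63.8 FPKM) and Emilin1 (33.7 to 38.2 FPKM). Fbn1, Loxl2 and Lox came next, and their ranges overlapped each other, from 6.93 to 11.6 FPKM. Loxl1 and Loxl3 also overlapped each other, and Fbn2 and Loxl4 were lowest, with overlapping ranges under 1 FPKM. In hyperoxia, the order of the first 4 genes was the same, the Fbn1 range (12.0 to 15.4 FPKM) no longer overlapped that of Loxl2 (9.25 to 10.6 FPKM), and the Loxl3 range reached that of Lox (6.36 to 11.4 FPKM).

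Both fibrillins rose. Fbn1 (chr2:125300594-125507993, minus strand), the main fibrillin of microfibrils after birth, held 10.8, 11.6, 9.25 and 10.3 FPKM in the normoxia libraries and 12.0, 15.4, 13.2 and 14.5 FPKM in the hyperoxia libraries, with no overlap. It was 1.31 times higher in hyperoxia (95% interval 1.15 to 1.49, adjusted p = 0.00479). Fbn2 (chr18:58008623-58209926, minus strand) encodes the fibrillin best known from fetal microfibrils. Its level was 0.913, 0.824, 0.795 and 0.550 FPKM in normoxia and 1.30, 1.87, 1.25 and 1.60 FPKM in hyperoxia, again without overlap, and its fold was 1.95 (1.499 to 2.54, adjusted p = 0.00145). The ratio of Fbn2 to Fbn1 FPKM was 7.38 ± 1.52% in normoxia and 10.9 ± 1.09% in hyperoxia (mean ± SD, n = 4), a description with no test, and the ranges of 5.33 to 8.60% and 9.51 to 12.2% did not overlap. A protein-coding gene on the other strand, Gm9913, overlaps 20.1% of the Fbn1 exon bases and averaged 0.0694 CPM (normoxia) and 0.0142 CPM (hyperoxia).

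Both adaptors rose as well. Fbln5 (chr12:101746565-101819055, minus strand), whose protein binds elastin precursor and lysyl oxidase-like enzymes, held 63.8, 48.6, 52.9 and 46.8 FPKM in normoxia and 69.8, 97.1, 79.7 and 91.3 FPKM in hyperoxia. Its lowest hyperoxia library lay just above its highest normoxia library, and its fold was 1.59 (1.33 to 1.89, adjusted p = 0.00114). Relative to Eln in the same library, the FPKM of Fbln5 was 8.99 ± 0.770% in normoxia and 14.0 ± 1.21% in hyperoxia, with ranges of 8.17 to 10.03% and 12.5 to 15.2%. The same ratio overlapped between the groups for Emilin1 (4.65 to 7.86% and 6.18 to 8.49%) and for Fbn1 (1.43 to 2.21% and 1.99 to 2.43%). Emilin1 (chr5:30913402-30921277, plus strand) encodes a glycoprotein found where elastin meets the microfibrils. It held 33.7, 38.2, 36.6 and 36.7 FPKM in normoxia and 44.0, 49.2, 45.2 and 45.0 FPKM in hyperoxia. Its change was the smallest of the 7 (fold 1.26, 1.16 to 1.37) with the smallest SE of the 10 genes (log2 fold change 0.33, SE 0.0537, adjusted p = 0.000765). 

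Reference promoter sequences were found for 4 of the genes that rose, and they are shown so that the start sites of genes that rose can be set side by side. Each window runs from 250 bases before the start site to 50 bases after it (RefSeq, GRCm38.p6, 5′ to 3′ on the strand of the gene), and Fbln5 has 2 start sites. Capitals mark the SMAD box GTCTG, the short motif bound by SMAD proteins of the TGF-β pathway, which stands in these windows as its reverse complement CAGAC.
Fbn1 (chr2:125506389-125506688, minus strand): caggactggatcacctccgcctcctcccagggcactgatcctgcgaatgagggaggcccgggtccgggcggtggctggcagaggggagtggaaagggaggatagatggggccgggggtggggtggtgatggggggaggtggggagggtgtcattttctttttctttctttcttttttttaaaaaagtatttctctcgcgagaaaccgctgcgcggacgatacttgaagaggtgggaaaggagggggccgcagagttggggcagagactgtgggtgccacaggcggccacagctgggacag
Fbln5 (chr12:101819070-101819369, minus strand): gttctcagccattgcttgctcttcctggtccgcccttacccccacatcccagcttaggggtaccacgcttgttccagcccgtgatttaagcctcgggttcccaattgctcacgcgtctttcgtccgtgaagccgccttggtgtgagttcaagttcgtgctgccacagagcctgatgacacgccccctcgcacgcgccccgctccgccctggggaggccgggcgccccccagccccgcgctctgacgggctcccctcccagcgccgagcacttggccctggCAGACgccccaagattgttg
Fbln5 (chr12:101818435-101818734, minus strand): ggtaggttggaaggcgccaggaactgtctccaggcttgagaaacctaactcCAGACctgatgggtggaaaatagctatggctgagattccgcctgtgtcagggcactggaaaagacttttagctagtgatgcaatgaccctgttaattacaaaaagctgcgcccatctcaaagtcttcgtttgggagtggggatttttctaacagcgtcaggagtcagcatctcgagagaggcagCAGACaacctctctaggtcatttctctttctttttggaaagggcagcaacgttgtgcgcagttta
Emilin1 (chr5:30913536-30913835, plus strand): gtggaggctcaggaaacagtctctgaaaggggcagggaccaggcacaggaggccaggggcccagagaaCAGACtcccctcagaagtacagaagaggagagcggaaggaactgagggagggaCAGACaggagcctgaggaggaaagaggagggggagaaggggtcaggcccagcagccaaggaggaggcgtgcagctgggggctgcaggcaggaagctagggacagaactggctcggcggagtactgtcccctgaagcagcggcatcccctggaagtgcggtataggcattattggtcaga
Loxl4 (chr19:42612757-42613056, minus strand): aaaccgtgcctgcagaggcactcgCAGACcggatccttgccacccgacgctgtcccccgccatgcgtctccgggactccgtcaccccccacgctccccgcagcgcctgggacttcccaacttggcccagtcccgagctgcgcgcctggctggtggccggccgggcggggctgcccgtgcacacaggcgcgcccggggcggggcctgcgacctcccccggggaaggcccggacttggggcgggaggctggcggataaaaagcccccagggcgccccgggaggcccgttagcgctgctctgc

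The windows of the adaptors and of Loxl4 held the SMAD box, and that of Fbn1 did not. It began 182 and 129 bases before the start site of Emilin1, 226 bases before that of Loxl4, 30 bases after the first Fbln5 start site printed above, and 199 and 15 bases before the second. Over all 32817 promoter windows of this length, 49.6% held a SMAD box on either strand. The AP-1 motif TGANTCA (in 7.81% of all windows), the hypoxia response core ACGTG (19.6%) and the TATA box TATAAA (13.6%) were searched on both strands and were in none of the 5 windows. The windows also differed in CpG sites, with 32 in Loxl4, 24 and 8 in the windows of Fbln5, 14 in Fbn1 and 6 in Emilin1, against a median of 7 over all windows.

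The lysyl oxidases did not move as a family. Lox (chr18:52516069-52529867, minus strand), the founding enzyme that acts on elastin and fibrillar collagen, held 10.9, 6.93, 8.05 and 8.38 FPKM in normoxia and 7.37, 8.29, 6.36 and 11.4 FPKM in hyperoxia. These ranges overlapped nearly fully, and the fold was 0.976 (0.745 to 1.28, adjusted p = 0.898). Loxl2 (chr14:69609068-69695834, plus strand), one of the enzymes with scavenger receptor domains and known to cross-link basement membrane collagen, held 10.2, 9.49, 9.70 and 11.1 FPKM in normoxia and 10.6, 10.4, 9.25 and 9.54 FPKM in hyperoxia. Its fold of 0.983 had the smallest log2 SE of the 5 lysyl oxidases (0.888 to 1.09, adjusted p = 0.801). The antisense transcript Gm27177 overlaps 5.57% of the Loxl2 exon bases and held 0.113 CPM in normoxia and 0.256 CPM in hyperoxia.

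Loxl3 (chr6:83034173-83052562, plus strand), another scavenger receptor type lysyl oxidase, changed most. The normoxia libraries held 1.47, 0.914, 1.17 and 1.23 FPKM and the hyperoxia libraries 6.66, 6.58, 5.11 and 6.83 FPKM, so every hyperoxia library was over 3 times the highest normoxia library. The fold was 5.26 (4.23 to 6.54, adjusted p = 1.02e-06), and on the log2 scale the change of 2.39 (SE 0.143) stood at percentile 98.8 of all genes tested. The gene Htra2, a mitochondrial protease, overlaps 11.6% of the Loxl3 exon bases on the opposite strand. Htra2 held 22.1 CPM in normoxia and 22.8 CPM in hyperoxia (log2 fold change 0.04, adjusted p = 0.728), and the sources used here do not give the strand setting of the counting.

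Loxl1 and Loxl4 rose from low levels. Loxl1 (chr9:58287738-58313186, minus strand), known for its part in keeping elastic fibres intact in adult tissue, held 2.44, 1.74, 1.21 and 1.05 FPKM in normoxia and 4.48, 4.45, 1.90 and 3.59 FPKM in hyperoxia. The groups overlapped, since the third hyperoxia library lay below the first normoxia library. The fold was 2.24 (1.41 to 3.58, adjusted p = 0.0125), with the largest SE of the 10 genes on the log2 scale (0.305). Loxl4 (chr19:42593982-42612813, minus strand), the third enzyme with scavenger receptor domains, held 0.549, 0.612, 0.449 and 0.443 FPKM in normoxia and 1.16, 1.77, 1.67 and 1.02 FPKM in hyperoxia, without overlap. Its fold was 2.72 (1.95 to 3.79, adjusted p = 0.000482), and its normoxia level of 0.513 ± 0.0823 FPKM was the lowest mean of the 10 genes.

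The make-up of the lysyl oxidase transcripts therefore differed between the groups, which is given here as a description with no test. Summed over the 5 enzymes, the level was 22.0 ± 2.55 FPKM in normoxia and 29.6 ± 3.66 FPKM in hyperoxia (mean ± SD, n = 4), with overlapping ranges of 19.7 to 25.5 and 24.3 to 32.4 FPKM. Loxl3 made up 4.65 to 5.77% of that sum in the normoxia libraries and 20.9 to 22.0% in the hyperoxia libraries. The share of Loxl2 was 46.3 ± 4.45% in normoxia and 33.9 ± 3.63% in hyperoxia, with no overlap, although its level was close to equal. Lox took 38.7 ± 3.09% and 28.0 ± 4.91%, with overlap. Loxl1 took 7.25 ± 2.32% and 12.0 ± 3.18%, also with overlap, and Loxl4 took 2.36 ± 0.508% and 4.86 ± 1.69% without it.

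**Figure D3:**
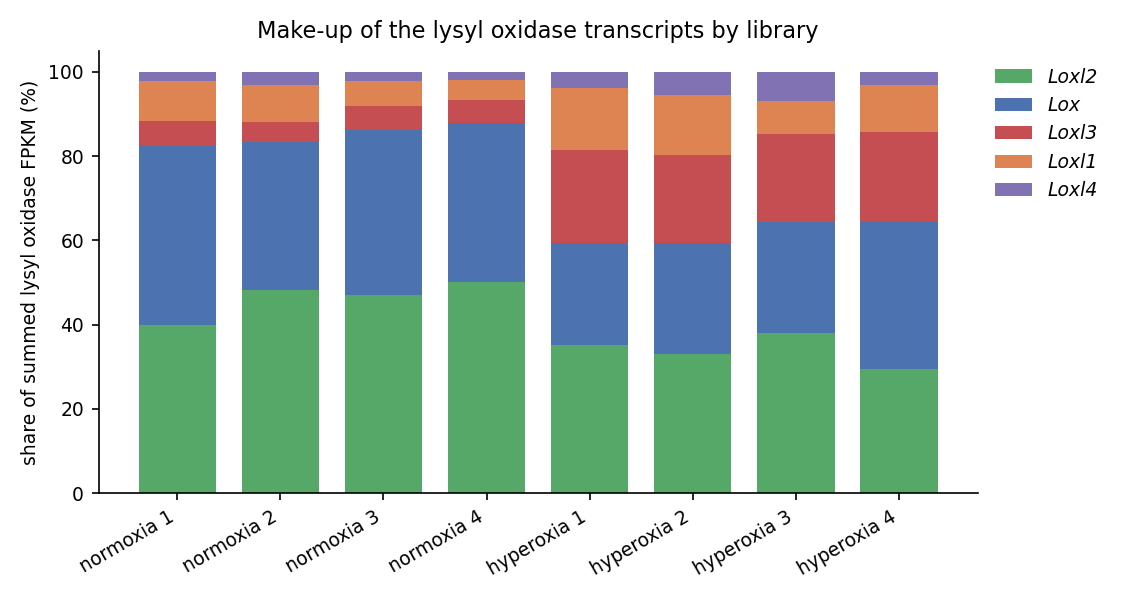
Share (%) of the summed FPKM of the 5 lysyl oxidases taken by each enzyme, with 1 stacked bar for each of the 8 libraries. Loxl2 and Lox take most of each bar, and the Loxl3 segment is 4.65 to 5.77% in the normoxia bars and 20.9 to 22.0% in the hyperoxia bars.

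Other genes that act on elastic fibres were grouped in 3 lists, whose counts stand beside 18.5% of all genes tested that were higher and 17.1% that were lower. Of 17 genes for microfibrils and fibre assembly, 16 were tested (Emilin3 was too low), 8 were higher, 2 were lower and 6 did not pass, with a median log2 fold change of 0.62. With the mesenchymal or the alveolar type 2 marker score as a covariate, 3 and 0 of these were higher. The most abundant were Ltbp4 (a latent TGF-β binding protein that also takes part in elastin assembly), Mfap2 (a microfibril-associated glycoprotein) and Fbln2 (fibulin-2). Mfap2 went the opposite way from the fibrillins, from 216 ± 14.8 to 123 ± 3.08 CPM (mean ± SD, n = 4, log2 fold change -0.82, adjusted p = 1.84e-06). Ltbp4 held 903 CPM in normoxia and 1027 CPM in hyperoxia (adjusted p = 0.169), and Fbln2 548 and 463 CPM (adjusted p = 0.164). The other gene that was lower was Ltbp1, another latent TGF-β binding protein (log2 fold change -0.41, adjusted p = 0.000651), which is named here after its value was seen. Among the genes that rose with a log2 fold change of at least 1, Adamtsl2, a secreted protein that binds fibrillin-1, went from 40.3 ± 3.58 to 82.0 ± 8.49 CPM (adjusted p = 7.63e-06). The remaining 3 were Efemp1 (fibulin-3) at 1.52, Ltbp2 at 1.23 and Fbln1 (fibulin-1) at 1.20 on the log2 scale, with adjusted p-values of 0.0156, 0.0244 and 0.00444. Efemp1 was low, at 0.664 CPM in normoxia. The groups overlapped for Efemp1 (0.497 to 0.918 and 0.687 to 3.03 CPM) and Ltbp2 (14.2 to 36.9 and 20.7 to 69.3 CPM), but not for Fbln1.

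Of 7 genes for lysyl oxidase maturation, 6 were tested (Tll2 was too low), 4 were higher and none was lower, with a median log2 fold change of 0.86. With the same covariates, 2 and 0 were higher. Bmp1, the protease that cleaves the propeptide of lysyl oxidase, held 151 CPM in normoxia and 159 CPM in hyperoxia (log2 fold change 0.07, adjusted p = 0.284). Fn1 (fibronectin) went from 274 ± 17.2 to 574 ± 106 CPM (1.06, adjusted p = 6.48e-05). Atp7a, the copper pump that loads secreted copper enzymes, went from 59.7 ± 9.22 to 94.1 ± 4.82 CPM (0.66, adjusted p = 0.000393). Postn (periostin) and Pcolce (an enhancer of Bmp1) rose by 1.57 and 1.08 on the log2 scale, with adjusted p-values of 0.00751 and 0.00261. Of 9 elastin-degrading proteases, 7 were tested (Elane and Cela1 were too low), 3 were higher and none was lower, a share near the 35.6% of all genes that passed, with a median log2 fold change of 0.36. With the covariates, 3 and 0 were higher, and 1 was lower under DESeq2, upper quartile scaling or library totals alone. Mmp2 (gelatinase A) went from 62.1 ± 9.60 to 153 ± 26.7 CPM (1.30, adjusted p = 3.78e-05), and Ctsl (cathepsin L) from 152 ± 7.01 to 195 ± 7.31 CPM (0.36, adjusted p = 0.00024). Mmp12 (macrophage elastase) rose by 1.32 on the log2 scale from 0.687 CPM (adjusted p = 0.0029), and Mmp14, a membrane-bound protease that activates Mmp2, held 285 and 266 CPM (adjusted p = 0.0752).

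**Figure D4:**
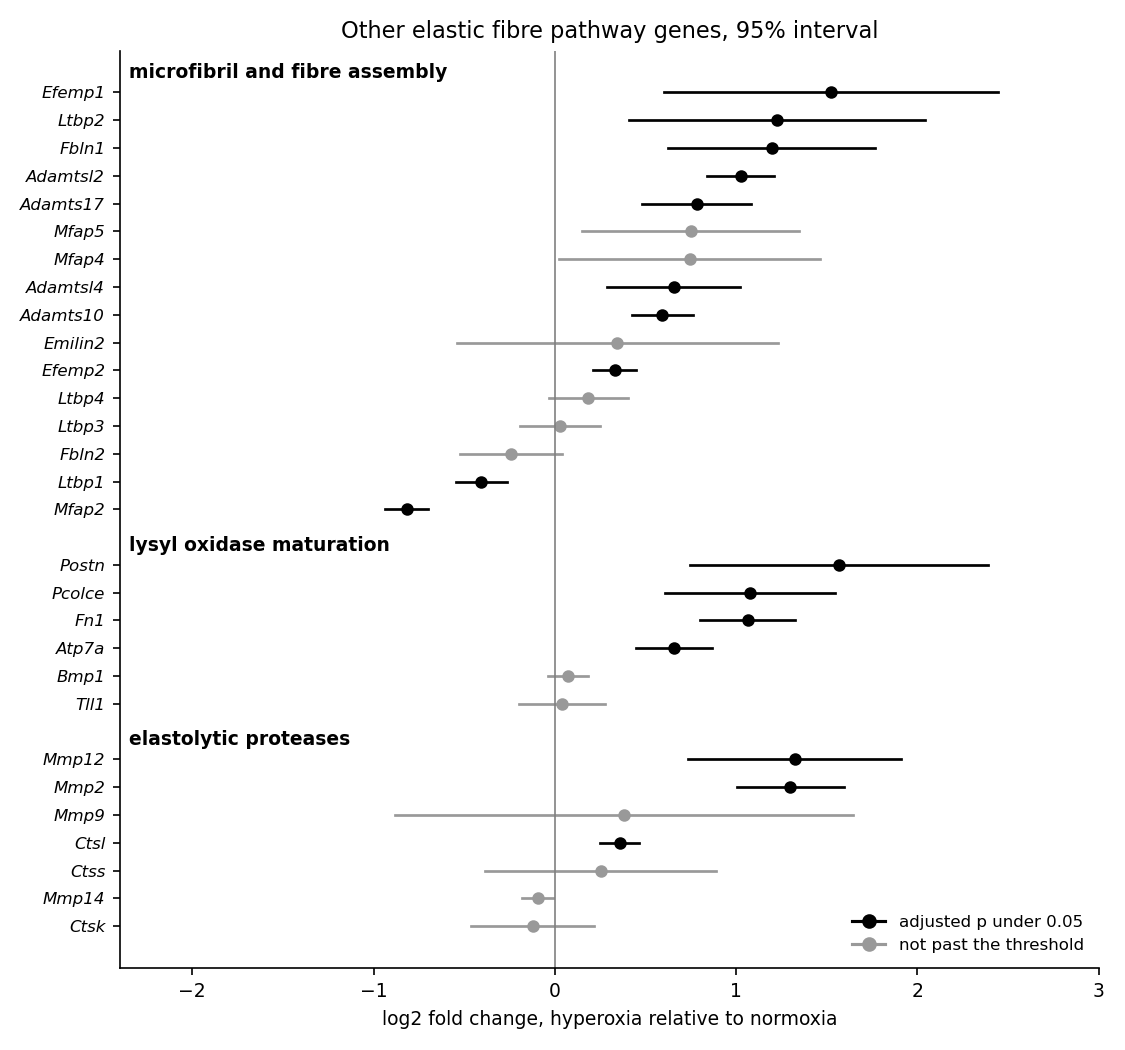
Fitted log2 fold change (hyperoxia relative to normoxia, 4 libraries each) with its 95% interval for the tested genes of the 3 lists of other elastic fibre genes. Black points passed an adjusted p of 0.05, and only Mfap2 (-0.82) and Ltbp1 (-0.41) of these lie to the left of 0.

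Markers of cells other than ECs also differed between the groups, and their counts are to be read beside the same 18.5% higher and 17.1% lower of all genes tested. Of 10 fibroblast markers tested, 6 were higher and 1 was lower, and their summed level was 185 to 315 CPM in normoxia and 242 to 498 CPM in hyperoxia. Col3a1, a fibrillar collagen, averaged 7.96 ± 2.84 FPKM in normoxia and 14.1 ± 3.83 FPKM in hyperoxia, while Col14a1 averaged 10.2 ± 0.935 and 7.70 ± 0.430 FPKM. Of 7 smooth muscle and myofibroblast markers, 5 were higher, at a summed 13.4 to 22.7 CPM in normoxia and 28.6 to 53.7 CPM in hyperoxia, with Acta2 (smooth muscle actin) at 1.43 ± 0.607 and 5.97 ± 1.47 FPKM and Aspn at 0.787 ± 0.463 and 2.93 ± 0.964 FPKM. Of 8 pericyte markers, 4 were higher, at 41.3 to 74.9 and 86.7 to 155 CPM, and the most abundant of the 8 were Rgs5, which rose (6.27 ± 1.04 and 13.5 ± 2.21 FPKM), and Cox4i2, which did not pass (2.67 ± 0.877 and 4.35 ± 0.997 FPKM, adjusted p = 0.0522). Lum, a fibroblast marker, and Cnn1, a smooth muscle marker, were each at 0 counts in 2 normoxia libraries. All 8 alveolar type 2 markers and all 5 alveolar type 1 markers were higher. The summed type 2 level (led by Sftpc and Sftpb, surfactant proteins) was 242 to 336 CPM in normoxia and 767 to 2283 CPM in hyperoxia. Sftpc averaged 102 ± 30.1 FPKM in normoxia and 1078 ± 457 FPKM in hyperoxia, where the EC marker Cdh5 averaged 955 FPKM. The summed type 1 level (led by Ager and Hopx) was 71.4 to 85.8 CPM in normoxia and 141 to 394 CPM in hyperoxia. Of 9 arterial EC markers (led by Efnb2 and Cxcl12), 5 were lower and none was higher (3242 to 3986 and 2415 to 2682 CPM), all 4 lymphatic markers tested (led by Lyve1 and Flt4) were higher (1223 to 1305 and 1845 to 2079 CPM), and of 6 leukocyte markers (led by Lyz2 and Cd68) 1 was higher and 1 was lower. Of 2 airway markers tested (Scgb1a1 leading the list, then Foxj1), none passed, and the 1 mesothelial marker tested was higher (Msln and Lrrn4 led that list), with a summed level of all 4 under 2 CPM.

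The mean log2 CPM of the 25 fibroblast, smooth muscle and pericyte markers tested was 2.46, 1.92, 1.76 and 1.66 in the normoxia libraries and 2.93, 3.34, 2.30 and 3.04 in the hyperoxia libraries. Loxl1 and Fbn2 had the same order as this score within normoxia. Within hyperoxia, Fbn2 followed the score and Loxl1 did not, and the third library was lowest in the score and in both genes. With the score as a covariate in the fit, the log2 fold change of Loxl1 was -0.06 (adjusted p = 0.926), while those of Loxl3 and Loxl4 were 2.01 and 1.40 (adjusted p = 0.000195 and 0.0329). The values of Fbn1, Fbn2 and Fbln5 were 0.22 to 0.42 and did not pass the threshold. Emilin1 stayed at 0.34, as without the score at 0.33, with an SE of 0.0986 in place of 0.0537 (adjusted p = 0.056). With the alveolar type 2 score, which did not overlap between the groups, Loxl3 alone of the 10 passed (1.55, adjusted p = 0.0486). Both scores were higher on average in hyperoxia, so the part of the cells they mark and that of hyperoxia cannot be told apart for any of the genes.

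**Figure D5:**
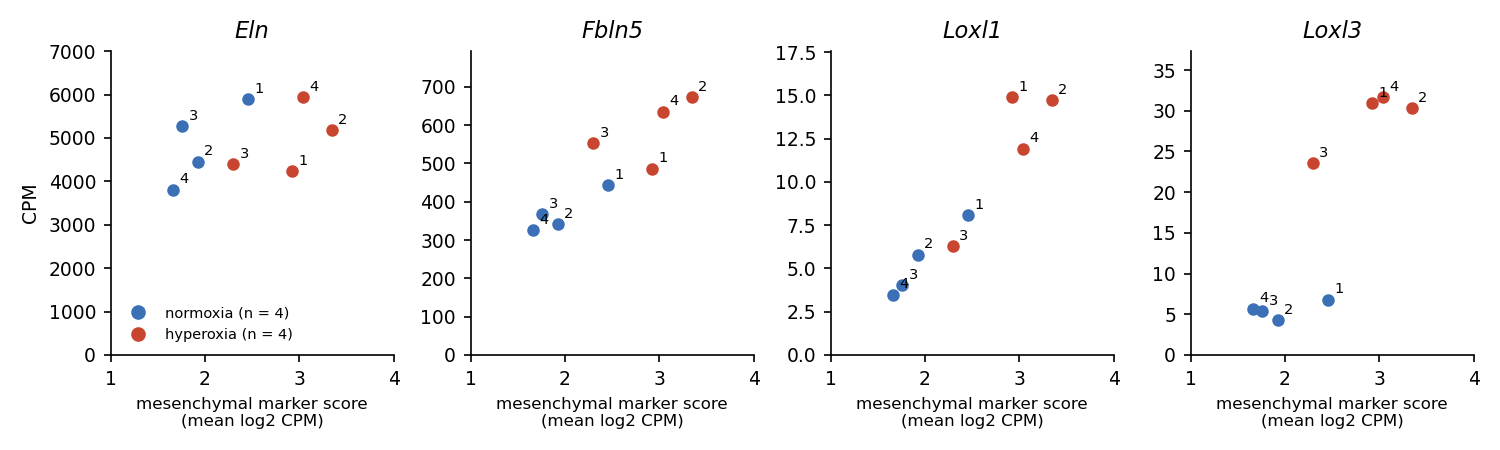
CPM of Eln, Fbln5, Loxl1 and Loxl3 in each library (numbered within its group) against the mean log2 CPM of 25 mesenchymal markers, with 4 normoxia and 4 hyperoxia libraries in each panel. The third hyperoxia library, at a score of 2.30, lies below the first normoxia library at 2.46. The order of Loxl1 is that of the score within the normoxia group, but not within the hyperoxia group.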

How the data were processed

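RNA of lung ECs from 4 normoxia and 4 hyperoxia libraries was read as paired ends (per the study's methods). The submitters' processing notes name HISAT2 2.0.5, featureCounts 1.5.0-p3 and mm10. The annotation, strand setting and handling of multi-mapping reads are not given in the sources used here. The authors deposited whole-number counts per gene and a second table of FPKM, which they scaled to gene length and library total. The labels name an RNeasy kit and the methods TRIzol for the RNA. Groups came from the sample titles.

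The counts were filtered with filterByExpr, scaled by TMM and fitted in edgeR 4.0.16 (R 4.3.3), whose quasi-likelihood F test was used, with the Benjamini-Hochberg adjustment over 15564 genes. The SE was taken from the F statistic. Levels between genes were compared only in FPKM. On simulated counts of 15564 genes, the fit recovered 84 of 100 genes changed by 1 and 99 of 100 changed by 2 on the log2 scale. It called 9 unchanged genes. The changes went in random directions, and genes of very low counts were not among those changed. Far fewer genes were changed than the 35.6% that passed in the data, and no shift in cell make-up was simulated. These rates need not hold for the 8 libraries. Alternatives were DESeq2 1.42.0, limma-voom, limma 3.58.1 on log2 FPKM with a pseudocount of 0.1 or 1, no filter or a mean of at least 5 CPM, other scalings, a replicate block, marker scores as covariates and leaving out each library.

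The genes, the 3 pathway lists and the 11 marker lists were chosen with earlier results of these data known. Named from each pathway list were the 3 genes of highest mean FPKM and those past an adjusted p of 0.05 whose log2 fold change was 1 or more in size. Named from each marker list were the 2 genes of highest mean FPKM. Promoters came from RefSeq tables. Lox and Fbn2, both on chromosome 18, were not searched, and 4 of the other genes were matched. The deposited coordinates of 8 of the 10 genes equal those of the GENCODE M21 annotation, the exceptions being Lox and Fbn2.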

Additional observations from a re-analysis of the deposited data

Results flagged for a closer look

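In 64 groups of 4 libraries, 1 library stood farther from the other 3 than Dixon's 95% critical value allows in 4 groups, where chance gives about 3.2. Loxl3 in the third hyperoxia library was 23.6 CPM, below 30.4 to 31.7 CPM in the other hyperoxia libraries, and still above every normoxia library. The Loxl4 share of the summed lysyl oxidase FPKM was 3.11% in the second normoxia library and 1.99 to 2.18% in the others. The summed smooth muscle and myofibroblast markers were 22.7 CPM in the first normoxia library and 13.4 to 13.6 CPM in the others. Eln, Fbn2, Fbln5, Lox, Loxl1 and Loxl3 were also highest of the normoxia group in that library. The summed alveolar type 1 markers were 141 CPM in the third hyperoxia library and 354 to 394 CPM in the others. Fbn2, Lox, Loxl1, Loxl2 and Loxl3 were also lowest of the hyperoxia group in that library. Fits with marker scores as covariates moved the log2 fold change of Loxl1 from 1.17 to -0.057 (mesenchymal) and -1.38 (alveolar type 2), and that of Loxl3 from 2.39 to 2.01 and 1.55.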

How the results depend on the processing

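Under DESeq2, limma-voom, both FPKM pseudocounts, other scalings, no filter, the replicate block and every left-out library, the 7 genes stayed past the threshold, with the highest adjusted p at 0.0396 for Loxl1. A minimum mean of 5 CPM left Loxl4 untested. A log2 fold change of at least 1 was reached by 1 of the 10 genes on log2(FPKM + 1), where low genes are pulled towards 0, and by 3 to 4 when a library was left out (with Fbn2 added, at 1.03 to 1.05, without the first normoxia, the first hyperoxia or the third hyperoxia library). Over all genes, the 1087 genes past both limits became 438 with the 5 CPM filter and 330 on log2(FPKM + 1).

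With the mesenchymal score as a covariate, 2 of the 10 genes passed, 1597 of all genes passed, and 506 did so with a log2 fold change of at least 1. With the alveolar type 2 score these counts were 1, 156 and 126, and 1 of the 10 genes also reached the fold limit. Under the mesenchymal and the type 2 score, respectively, the log2 fold changes were 0.22 and 0.24 for Fbn1, 0.42 and 0.10 for Fbn2, 0.34 and 0.26 for Fbln5, 0.34 and 0.34 for Emilin1, -0.057 and -1.38 for Loxl1, -0.35 and -0.60 for Eln, -0.55 and -1.09 for Lox and -0.087 and -0.26 for Loxl2. Loxl4 was 1.90 under the type 2 score (adjusted p = 0.225). Without covariates, Eln was -0.000862 with library totals as the only scaling and -0.078 to 0.13 with a library left out, Lox -0.22 to 0.10 and Loxl2 -0.058 to 0.021.

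The groups share library numbers, and the labels do not say whether these pair the libraries. Deviations from the group mean correlated at -0.14 to 0.119 between libraries of the same number, and 1 of 4 numbers correlated best with itself. With 4 libraries a group, these correlations are too few to decide whether the numbers pair them. With the replicate block, 7 of the 10 genes passed and 3 reached the fold limit, as without it, while 4792 of all genes passed in place of 5535. The depth of 16098086 counts or more left 2.18 CPM for Loxl4 in normoxia. With 4 libraries a group, the 95% interval of the Eln fold was 0.822 to 1.26, and the smallest detectable change was not computed.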

Other observations

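Among 9069 protein-coding genes with a mean of at least 10 CPM, the genes whose pattern over the 8 libraries was most like that of Eln were Cpe, Mrpl22 and Sfrp1. Likeness was the root mean square difference of log2 CPM after each gene was centred on its own normoxia mean, at 0.0857, 0.103 and 0.108. Sfrp1, a secreted WNT antagonist, held 34.8 ± 7.47 CPM in normoxia and 35.1 ± 7.93 CPM in hyperoxia (mean ± SD, n = 4), and Cpe, carboxypeptidase E, held 115 ± 25.6 and 120 ± 16.9 CPM.

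For Loxl3, the nearest genes were Dcxr, Adgrg1 and Tbxas1, at differences of 0.111, 0.157 and 0.163. Dcxr, a carbonyl reductase, held 3.61 ± 0.945 CPM in normoxia and 18.6 ± 2.83 CPM in hyperoxia. Adgrg1, an adhesion G protein-coupled receptor, held 21.6 ± 3.18 and 112 ± 10.8 CPM, and Tbxas1, thromboxane synthase, 5.42 ± 0.231 and 27.5 ± 3.87 CPM. The genes were chosen for this likeness, so their changes were not tested as a group.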
